A study of Mus musculus with 4 samples.

Results

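Corticosteroid signalling genes were followed across the cell groups of the mouse ventromedial prefrontal cortex (vmPFC). The set was a list of 7 genes, given by name, out of 31053 in the count matrices. It held the receptors Nr3c1 and Nr3c2, the steroid-activating enzyme Hsd11b1, and the target genes Fkbp5, Sgk1, Tsc22d3 and Per1. All 7 were found in every matrix.

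The cells came from male C57BL/6 mice, injected at 8 weeks of age with EGFP viruses of the rAAV2-retro type, each carrying its own barcode, into a thalamic nucleus (MD), the lateral hypothalamus (LH), the basolateral amygdala (BLA), the dorsomedial striatum (DMS) and the agranular insula (AI). These viruses enter axon endings, so a viral transcript is taken to mark a neuron that projects to an injected region. The authors required barcode UMIs above a threshold set on control cells. They also wrote that entry along passing axons is not fully excluded. The unsorted group had 3 libraries of 1 mouse each (mouse 1, 2 and 3), and the sorted group had 1 library in which EGFP-positive cells of 3 further mice (mouse 4-6) were pooled. All mice carried the virus, and for the unsorted mice the methods describe slices kept in CNQX and D-AP5 followed by enzyme digestion, so no group was free of virus or of dissociation. The methods describe no steroid or stressor given as a treatment, and no steroid was measured. The injections were made under pentobarbital anaesthesia, and for the unsorted mice anaesthesia and perfusion before dissection are described.

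Cortisol and corticosterone act through a pair of related nuclear receptors. The mineralocorticoid receptor, encoded by Nr3c2, binds corticosterone tightly and is largely occupied at rest. The glucocorticoid receptor, encoded by Nr3c1, has lower affinity and fills during stress and at the daily hormone peak. Bound receptors enter the nucleus and act at glucocorticoid response elements, among them those of Fkbp5, a co-chaperone that lowers the receptor's affinity for hormone, Sgk1, a kinase, Tsc22d3, which encodes the anti-inflammatory protein GILZ, and Per1, a clock gene. Hsd11b1 encodes the enzyme that regenerates active corticosterone inside cells. Sgk1 and Per1 also respond to signals other than steroids, including neuronal activity.

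The promoters bear on the target genes, because receptors act through DNA. The RefSeq promoter table (GRCm38.p6) held 14 entries for 6 of the 7 genes, and none was matched for Nr3c1. The 250 bases before each start were searched on both strands for the palindromic glucocorticoid element (AGAACA and TGTTCT, 3 bases apart), its single arm AGAACA, the E-box CACGTG bound by clock factors, and the cyclic AMP element TGACGTCA. The full palindrome stood in 1 Sgk1 entry and in none of that gene's other entries, and was found in 3 of 32851 promoters (0.00913%). Its first base lay 189 bases before the start, and the same entry also had an E-box. E-boxes stood in 3 member entries (Sgk1, Per1 and Fkbp5) against 6.02% of all promoters, single arms in 4 entries against 16.1%, and no member entry held the cyclic AMP element, which 1.55% of all promoters held. The single arm is part of the palindrome, so the Sgk1 entry counts for both. Imperfect elements and sites outside these windows were not searched, so a gene without a match here may still have a receptor site. Which start the cells used was not tested. The 3 windows with an E-box or the palindrome are given here, since they carry the letters that differ among the target genes, with those motifs in capitals. They lie at chr10:21993640-21993889 (plus strand), chr11:69098699-69098948 (plus strand) and chr17:28486150-28486399 (minus strand).
Sgk1: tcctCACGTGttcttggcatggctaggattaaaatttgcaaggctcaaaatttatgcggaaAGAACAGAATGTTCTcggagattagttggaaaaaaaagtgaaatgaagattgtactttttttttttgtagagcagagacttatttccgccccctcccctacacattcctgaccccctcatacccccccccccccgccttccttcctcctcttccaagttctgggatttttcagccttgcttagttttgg
Per1: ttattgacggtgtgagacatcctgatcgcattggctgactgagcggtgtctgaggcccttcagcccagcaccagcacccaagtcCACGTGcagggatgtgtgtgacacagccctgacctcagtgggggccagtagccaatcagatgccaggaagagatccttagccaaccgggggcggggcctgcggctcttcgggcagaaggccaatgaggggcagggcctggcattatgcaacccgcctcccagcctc
Fkbp5: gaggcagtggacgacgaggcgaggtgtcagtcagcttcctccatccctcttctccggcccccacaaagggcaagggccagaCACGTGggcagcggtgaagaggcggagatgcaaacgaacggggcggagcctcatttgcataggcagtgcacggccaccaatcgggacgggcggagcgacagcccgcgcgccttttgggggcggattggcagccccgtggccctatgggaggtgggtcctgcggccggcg

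Per the mouse annotation (GENCODE vM21, GRCm38, the build called mm10 by the authors), Nr3c1 (ENSMUSG00000024431) lies at chr18:39410545-39519421 on the minus strand and Nr3c2 (ENSMUSG00000031618) at chr8:76899442-77245012 on the plus strand. Hsd11b1 (ENSMUSG00000016194) lies at chr1:193221634-193264075 on the minus strand, inside the span of Lamb3, which runs on the opposite strand. Fkbp5 (ENSMUSG00000024222) lies at chr17:28399094-28517527 on the minus strand, Sgk1 (ENSMUSG00000019970) at chr10:21882184-21999903 on the plus strand, Tsc22d3 (ENSMUSG00000031431) at chrX:140539528-140600659 on the minus strand and Per1 (ENSMUSG00000020893) at chr11:69095217-69109960 on the plus strand. All are protein-coding. Small or antisense transcripts overlap Nr3c2, Fkbp5 and Hsd11b1, and their reads were not separated here.

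The 4 libraries held 2075 to 8040 cell barcodes and 54749198 to 87841541 UMIs each, and pairs of libraries shared 5 to 30 cell barcodes of 24801. Excitatory neurons and their 7 subtypes were taken from the authors' annotation (9368 neurons, 7765 of them unsorted). A further 3 classes were gated among cells that this annotation does not list, namely 2116 endothelial cells (Cldn5 and Flt1), 1798 mature oligodendrocytes (Mog and Mag) and 2964 microglia (Cx3cr1 and P2ry12). Within each library the UMIs of a cell group were added up, and a level is given in CPM, the gene's UMIs scaled to the total of that sum, compared for 1 gene between cell groups and never between genes. The median depth per cell was 3088 to 3655 UMIs in endothelial cells, 4669 to 4941 in oligodendrocytes, 4266 to 4485 in microglia and 21343.5 to 23213 in excitatory neurons. Each class had its own 6 markers at a mean summed level of 14868 to 43002 CPM, and the markers of the other gated classes at means of 9.70 to 118 CPM. Each list includes the 2 genes of its gate, and cells that passed another gate were left out, so these levels are partly set by the gates. The 5 excitatory markers summed to 4579 CPM in neurons and to 515 to 778 CPM in the classes, with ranges of 634 to 808 CPM in endothelial cells, 448 to 619 CPM in oligodendrocytes and 651 to 876 CPM in microglia. In these sums a lower share of expressing cells and less RNA per cell cannot be told apart.

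Nr3c1 was detected in every cell group. In endothelial cells its level was 249.7, 257.6 and 240.9 CPM in unsorted replicates 1, 2 and 3. In oligodendrocytes it was 193.8, 191.5 and 183.8 CPM, and in microglia 154.4, 150.1 and 152.4 CPM. The 3 classes did not overlap each other, and their means lay above that of every neuronal subtype, with microglia inside the range of L5-Htr2c (129.1 to 157.2 CPM). Among neurons, L6-Npy (142.8 ± 2.62 CPM, SD, n = 3), L5-Htr2c (142.0 ± 14.2) and L6-Syt6 (139.2 ± 4.57) overlapped in range. L2/3-Calb1 (100.9 ± 6.38) and L5-S100b (98.7 ± 6.65) formed a lower overlapping pair, and L2/3-Rorb (83.9 ± 3.47) and L5-Bcl6 (80.4 ± 6.37) the lowest. From the highest to the lowest group the mean differed 3.10-fold, and among the neuronal subtypes 1.78-fold.

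Nr3c2 was concentrated in a few neuronal subtypes. In L5-Bcl6 neurons it reached 50.4, 44.7 and 43.7 CPM, and in L6-Npy neurons 23.4, 29.0 and 24.1 CPM. In L2/3-Rorb neurons it was 4.50, 2.20 and 2.68 CPM, from 8 to 20 UMIs per library. The L5-Bcl6 values lay above all others, followed without overlap by L6-Npy. L2/3-Calb1 (17.9 ± 2.73 CPM) and endothelial cells (15.1 ± 1.74) overlapped, and both lay above oligodendrocytes (6.26 ± 0.69). Oligodendrocytes, microglia (5.68 ± 0.22), L5-Htr2c (5.07 ± 2.20), L6-Syt6 (4.32 ± 0.21), L5-S100b (3.87 ± 1.09) and L2/3-Rorb (3.13 ± 1.21) overlapped from neighbour to neighbour. The span among subtypes was 14.8-fold, so L5-Bcl6 combined the highest Nr3c2 with the lowest Nr3c1 mean of the 10 groups.

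Hsd11b1 was close to the detection limit. Over the 3 unsorted libraries it had 19 UMIs in L2/3-Rorb neurons, 14 in L5-S100b, 10 in microglia, 6 in endothelial cells and at most 3 in each other group. L2/3-Rorb had 1.35, 1.92 and 1.34 CPM, above the unsorted range of every other group. In these libraries no UMI was found in L5-Bcl6 or L6-Npy neurons, which allows up to 0.401 and 0.176 CPM when 3 counts over the pooled libraries are taken as the limit. The gene failed the filter on low counts in every comparison and was not tested. All other 6 genes passed in every comparison.

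Fkbp5 was highest in microglia, at 33.6, 33.6 and 32.6 CPM. It was lowest in endothelial cells, at 1.76, 1.82 and 3.08 CPM, from 7, 7 and 12 UMIs. The ranges of these groups stood apart from their neighbours in the order. L5-Htr2c (16.4 ± 4.34 CPM), L5-S100b (13.3 ± 0.74), L2/3-Calb1 (12.9 ± 3.28), L5-Bcl6 (12.2 ± 2.71) and L6-Npy (9.02 ± 1.18) overlapped from neighbour to neighbour. L6-Syt6 (6.47 ± 0.093) and L2/3-Rorb (5.84 ± 0.48) were lower than these, and L2/3-Rorb overlapped oligodendrocytes (4.23 ± 1.17).

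Sgk1 spanned the widest range of means among the genes detected in all groups, 29.5-fold. Its level in microglia was 611.9, 745.8 and 729.9 CPM. Oligodendrocytes had 361.3, 388.9 and 412.6 CPM and endothelial cells 269.3, 231.9 and 249.9 CPM. Each of these classes stood clear of the next. Among neurons the layer 6 subtypes led, with 91.6, 94.5 and 104.4 CPM in L6-Syt6 and 74.1, 83.6 and 81.7 CPM in L6-Npy. L2/3-Calb1 (43.7 ± 2.69 CPM) followed, and L5-Bcl6 (29.0 ± 1.35), L5-Htr2c (28.6 ± 3.22), L2/3-Rorb (25.0 ± 0.75) and L5-S100b (23.6 ± 1.27) overlapped from neighbour to neighbour.

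Tsc22d3 was an endothelial gene above all, at 500.4, 474.0 and 439.7 CPM. Microglia (179.2 ± 12.5 CPM) and oligodendrocytes (130.1 ± 1.91) came next without overlap. L5-Htr2c (75.2 ± 9.62) and L6-Syt6 (70.4 ± 2.04) overlapped at the top of the neurons. L5-Bcl6 (50.7 ± 5.58), L5-S100b (49.2 ± 1.93) and L2/3-Rorb (45.1 ± 5.42) formed the middle, and L6-Npy (34.8 ± 1.26) and L2/3-Calb1 (34.4 ± 4.29) the bottom. Replicate 3 had the lowest value in 8 of 10 groups.

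Per1 was highest in microglia (100.9, 90.3 and 91.5 CPM) and then in endothelial cells (70.2, 74.5 and 69.1 CPM). It was lowest in oligodendrocytes, at 19.3, 23.0 and 19.6 CPM. None of these ranges overlapped that of another group. The neuronal subtypes lay between 35.5 ± 3.85 CPM in L5-Htr2c and 57.4 ± 2.94 CPM in L2/3-Rorb, a 1.62-fold span.

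**Figure D1:**
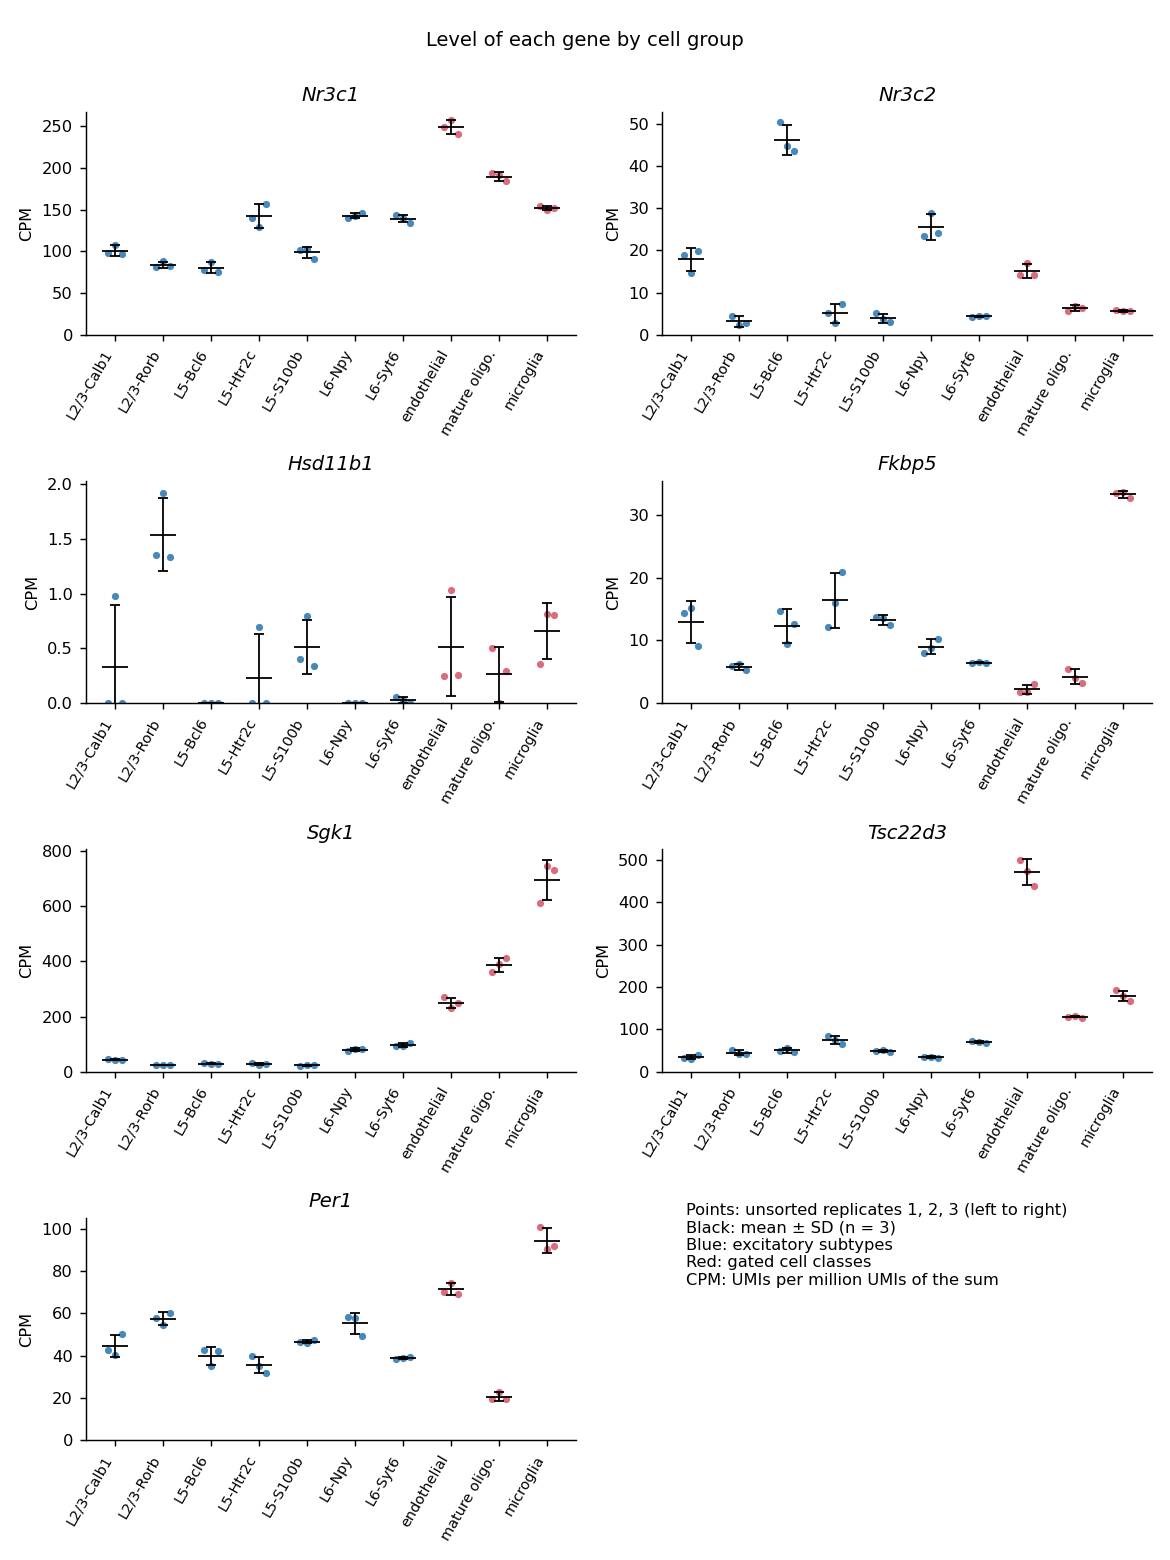
Level of each of the 7 genes (CPM, linear axes from 0) in 7 excitatory subtypes (blue) and 3 gated classes (red), 1 point per unsorted library with the mean and SD in black. Nr3c2 peaks in L5-Bcl6 at 46.3 CPM, Tsc22d3 in endothelial cells at 471.4 CPM, and Fkbp5, Sgk1 and Per1 in microglia.

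The gated classes were then tested against excitatory neurons of the same libraries with edgeR's quasi-likelihood test, library as a block, over 14046 genes. Calls required both an adjusted p (Benjamini-Hochberg) under 0.05 and a difference of 0.5 or more on the log2 scale, in either direction. In endothelial cells 6 of 6 tested members were called, 5 of them higher, where 68.7% of all genes were called (35% higher, 33.7% lower). In oligodendrocytes 5 of 6 were called, 3 of them higher, where 63.3% of all genes were (30.3% higher, 33% lower). In microglia 5 of 6 were called, all higher, where 70.8% were (33.2% higher, 37.6% lower). With so many genes called, these counts do not set the members apart, and the sizes carry the description. The median log2 fold change of the 6 tested members was 0.97 in endothelial cells, 0.34 in oligodendrocytes and 1.74 in microglia, beside 0.02, -0.03 and -0.11 over all genes.

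Endothelial cells exceeded neurons in Tsc22d3 by 3.04 ± 0.046 (log2 fold change ± SE, adjusted p = 5.16e-25), in Sgk1 by 1.87 ± 0.075 (adjusted p = 1.06e-16) and in Nr3c1 by 1.06 ± 0.044 (adjusted p = 1.88e-16). Nr3c2 was higher by 0.89 ± 0.12 and Per1 by 0.79 ± 0.061. Fkbp5 was lower, at -1.86 ± 0.22 (adjusted p = 6.59e-08). Of the 3 classes, endothelial cells thus had the highest Nr3c1, Nr3c2 and Tsc22d3 and the lowest Fkbp5. All 6 differences had the same sign in 3 of 3 libraries. The endothelial gate also held mural cell markers (4 genes, Rgs5, Vtn, Pdgfrb and Acta2, none at 0), at 3500 to 4205 CPM in sum against 15.2 to 16.5 CPM in neurons, and 1225 of the 2116 cells had 2 or more mural UMIs. Without those cells all 6 members were still called and Tsc22d3 was at 3.13, Sgk1 at 1.96, Nr3c1 at 1.02 and Fkbp5 at -1.76. Endothelial Fkbp5 fell from 2.22 to 1.28 CPM when cells with 2 or more UMIs of Slc17a7 and Camk2a were left out (log2 fold change -2.67).

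Microglia had more Sgk1 than neurons by 3.66 ± 0.069 (adjusted p = 3.45e-23), more Fkbp5 by 2.36 ± 0.095 (adjusted p = 1.16e-16), more Tsc22d3 by 1.97 ± 0.049 and more Per1 by 1.51 ± 0.054. All 4 target genes were therefore higher in microglia. Nr3c1 was higher by 0.66 ± 0.045 and Nr3c2 was at -0.20 ± 0.15 (adjusted p = 0.216), not called. The receptor results depended on scaling. With total counts in place of TMM factors the median of all genes shifted by -0.38, Nr3c1 dropped to 0.28 and lost its call, and Nr3c2 moved to -0.58 and gained one. The target genes kept their calls under that scaling. The gate also held perivascular macrophage markers (4 genes, Pf4, Mrc1, Cd163 and Lyz2, none at 0), at 269 to 352 CPM against 0.43 to 0.76 CPM in neurons, and without the 934 cells that had 2 or more of those UMIs Sgk1 was at 3.59 and Fkbp5 at 2.23.

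Oligodendrocytes split the target genes. Sgk1 was higher by 2.70 ± 0.072 (adjusted p = 6.21e-20) and Tsc22d3 by 1.39 ± 0.057, while Per1 was lower at -0.80 ± 0.089 and Fkbp5 at -0.72 ± 0.19. Nr3c1 was higher by 0.86 ± 0.046, and Nr3c2 was at -0.18 ± 0.16 (adjusted p = 0.327), not called. The Fkbp5 difference rests on 11 to 22 UMIs per library in oligodendrocytes, and with every cell thinned to 2000 UMIs it was -0.65 with an adjusted p of 0.112. Immediate early genes (15 genes), which respond to activity and to dissociation, summed to 13103 ± 379 CPM in microglia, 11292 ± 140 CPM in endothelial cells, 4754 ± 77.8 CPM in excitatory neurons and 2278 ± 34.2 CPM in oligodendrocytes. Per1 followed the same order of groups, and the part of dissociation in its level was not tested. The oligodendrocyte gate also held oligodendrocyte precursor markers (3 genes, none at 0), at 61.9 to 147 CPM in sum against 1.71 to 2.46 CPM in neurons, and 72 of the 1798 cells had 2 or more of those UMIs. Without those cells Sgk1 was at 2.77, Tsc22d3 at 1.46, Nr3c1 at 0.96, Nr3c2 at -0.05, Per1 at -0.77 and Fkbp5 at -0.999. Of 5 astrocyte markers 4 were tested, with 3 higher and 1 lower in oligodendrocytes. Slc1a3 was at 85.7 to 91.6 CPM against 1.93 to 2.67 CPM in neurons, whereas the sum of all 5 was 255 to 314 CPM against 835 to 851 CPM. The part of astrocyte RNA was not tested.

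**Figure D2:**
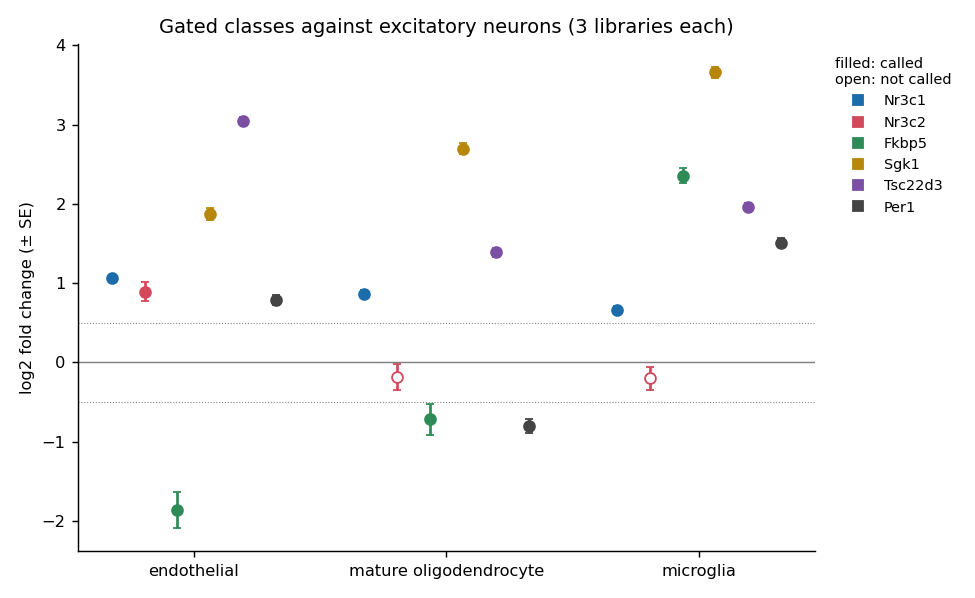
Log2 fold change (± SE) of the 6 tested genes in each gated class against excitatory neurons, 3 libraries per side, filled where called and with dotted lines at 0.5 and -0.5. Sgk1 and Tsc22d3 are higher in all 3 classes, whereas Fkbp5 is higher in microglia (2.36) and lower in endothelial cells (-1.86).

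Other genes of the pathway were taken from lists. Of 21 further glucocorticoid target genes, 19 were tested. In endothelial cells 13 were higher and 1 was lower (median 2.71), where 35% of all genes were called higher. In oligodendrocytes 11 were higher and 4 lower (median 1.70), against 30.3% of all genes higher, and in microglia 11 higher and 5 lower (median 1.35), against 33.2%. Sult1a1, a sulfotransferase, was higher by 7.16 ± 0.21 in endothelial cells and by 8.13 ± 0.18 in microglia. Nfkbia, the inhibitor of NF-kappa-B and also a target of inflammatory signals, was higher by 5.99 ± 0.064 and 8.35 ± 0.066 in the same classes. Pdk4, which restrains glucose oxidation, was at 0.023 ± 0.020 CPM in neurons (SD, n = 3), 6.49 ± 1.47 CPM in endothelial cells and 3.20 ± 0.69 CPM in oligodendrocytes, and was called higher in both classes. Plin4, a lipid droplet protein, was higher by 6.21 ± 0.38 in oligodendrocytes, Gjb6, a connexin also known from astrocytes, whose markers are given above, by 3.53 ± 0.50 in oligodendrocytes, and Cebpd, a transcription factor, by 5.34 ± 0.085 in microglia.

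Of 8 chaperones of the receptor complex, 1 was higher and 3 were lower in endothelial cells, where 68.7% of all genes were called (35% higher, 33.7% lower). In oligodendrocytes 4 were higher and 1 was lower, where 63.3% were called (30.3% higher, 33% lower), and in microglia 2 were lower, where 70.8% were called (33.2% higher, 37.6% lower). Fkbp4, a co-chaperone that competes with Fkbp5 on the receptor complex, was higher by 0.92 ± 0.052 in endothelial cells and by 1.39 ± 0.051 in oligodendrocytes, the classes in which Fkbp5 was lower. In microglia, where Fkbp5 was higher, Fkbp4 was not called. In the subtype tests below, Fkbp4 and Fkbp5 were both lower in L2/3-Rorb (-0.81 and -0.97) and both higher in L5-Htr2c (0.66 and 0.70). Hsp90aa1, which holds the receptor ready to bind hormone, was at -1.11 ± 0.044 in endothelial cells, -0.92 ± 0.043 in microglia and 0.93 ± 0.041 in oligodendrocytes. Stip1 was lower in endothelial cells (-0.84 ± 0.063) and microglia (-0.93 ± 0.062), and Bag1 was lower in oligodendrocytes (-1.23 ± 0.052). Among 6 coregulators, the coactivator Ncoa3 was higher in each class, by 1.63 ± 0.081, 1.55 ± 0.088 and 2.52 ± 0.067 in endothelial cells, oligodendrocytes and microglia, and Ncoa1 was lower in oligodendrocytes (-0.94 ± 0.064) and microglia (-1.08 ± 0.060). Nrip1, a corepressor, was higher in microglia by 2.34 ± 0.045. Among the genes listed as steroid-handling, Abcb1a, an efflux pump of the blood-brain barrier, had 761 ± 10.3 CPM in endothelial cells against 0.28 ± 0.050 CPM in neurons. Transport of corticosterone was not measured. H6pd, which supplies the cofactor of the Hsd11b1 enzyme, was higher by 2.58 ± 0.15 in microglia and lower in oligodendrocytes (-1.12 ± 0.36).

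Each neuronal subtype was tested against the mean of the other subtypes over 12850 genes in the 3 unsorted libraries. The authors formed the subtypes by clustering these cells on expression, so the p-values measure the spread between libraries and are not an independent test that the subtypes differ. Of 6 tested members, L2/3-Calb1 had 2 called (1 higher, 1 lower), where 21.6% of all genes were called (12% higher, 9.64% lower). For L2/3-Rorb the count was 3, all lower, where 18.5% were called (12% higher, 6.5% lower). For L5-Bcl6 it was 3, with 1 higher and 2 lower, where 18.8% were called (9.25% higher, 9.52% lower). L5-Htr2c had 4, with 2 in each direction, where 28.2% were called (13.5% higher, 14.7% lower), and L5-S100b had 2, both lower, where 17% were called (11.1% higher, 5.92% lower). For L6-Npy the count was 3, with 2 higher and 1 lower, where 17.8% were called (10.3% higher, 7.53% lower), and for L6-Syt6 it was 4, with 2 in each direction, where 25.6% were called (14.6% higher, 11.1% lower).

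Nr3c2 was called in 7 of 7 subtypes. It was higher in L5-Bcl6 by 2.73 ± 0.12 (adjusted p = 9.25e-31), in L6-Npy by 1.72 ± 0.11 (adjusted p = 1.09e-22) and in L2/3-Calb1 by 1.05 ± 0.18. It was lower in L2/3-Rorb (-1.81 ± 0.21), L5-S100b (-1.42 ± 0.16), L6-Syt6 (-1.20 ± 0.12) and L5-Htr2c (-1.07 ± 0.28). Within layer 2/3, and again within layer 6, one subtype was higher and the other lower. Under 9 alternatives each of these 7 calls held, with the L5-Bcl6 value between 2.68 and 2.78.

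Nr3c1 differences were smaller. Its only call was in L5-Bcl6 (-0.50 ± 0.062, adjusted p = 2.17e-10), right at the fold limit, and without replicate 1 or replicate 3 it was -0.48 and -0.47 and was not called. It was at 0.49 ± 0.028 in L6-Syt6, 0.47 ± 0.040 in L6-Npy, 0.36 ± 0.064 in L5-Htr2c and -0.47 ± 0.050 in L2/3-Rorb. These values had adjusted p-values under 0.05 but did not reach the fold limit, and 3 of them passed it under some alternative. L6-Syt6 passed without replicate 2 (0.51), without replicate 3 (0.51), with no filter on low counts (0.59) and with the sorted library added (0.51). Without the activity-high neurons (the fifth of neurons with the highest share of immediate early genes), Nr3c1 was at 0.53 in L6-Npy and -0.52 in L2/3-Rorb.

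Sgk1 was called in 6 of 7 subtypes. It was higher by 1.57 ± 0.036 in L6-Syt6 (adjusted p = 6.35e-49) and by 1.18 ± 0.054 in L6-Npy (adjusted p = 5.35e-30), and lower in L5-S100b (-0.87 ± 0.064), L2/3-Rorb (-0.82 ± 0.082), L5-Htr2c (-0.63 ± 0.12) and L5-Bcl6 (-0.51 ± 0.098). In L2/3-Calb1 it was at 0.09 ± 0.095 (adjusted p = 0.501), not called. The immediate early gene sum was 5540 ± 102 CPM in L6-Syt6, 4716 ± 376 CPM in L2/3-Rorb, 4586 ± 346 CPM in L6-Npy, and 2404 to 3335 CPM in the other subtypes. When the activity-high neurons were left out, Sgk1 remained called in L6-Syt6 (1.16) and L6-Npy (0.57), and lost its call in L5-Htr2c (-0.32) and L5-Bcl6 (-0.32). In L2/3-Calb1 it was then 0.36 (adjusted p = 0.00383), short of the fold limit. The L5-Bcl6 call also failed without replicate 3 (-0.48). The endothelial markers summed to 21.1 ± 1.39 CPM in L6-Npy and to means of 6.90 to 10.4 CPM in the other subtypes. The part of RNA from other cell types in the Sgk1 values was not tested.

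Tsc22d3 was higher in L6-Syt6 (0.68 ± 0.036, adjusted p = 1.19e-27) and L5-Htr2c (0.64 ± 0.087) and lower in L2/3-Calb1 (-0.66 ± 0.098) and L6-Npy (-0.57 ± 0.065). The layer 6 subtypes, both high in Sgk1, therefore lay on opposite sides for Tsc22d3. Fkbp5 was higher in L5-Htr2c (0.70 ± 0.19, adjusted p = 0.00148) and lower in L2/3-Rorb (-0.97 ± 0.17) and L6-Syt6 (-0.68 ± 0.088). The L5-Htr2c call rests on 21 to 32 UMIs per library and failed without replicate 3 (0.45, adjusted p = 0.125). Fkbp5 also reached a call in L2/3-Calb1 without replicate 3 (0.57), in L5-S100b without replicate 3 (0.52) and in L5-Bcl6 without replicate 2 (0.53). Per1 was called by edgeR in 0 of 7 subtypes, with an unadjusted p under 0.05 in 4 and 0 calls by DESeq2. Its largest values were -0.47 ± 0.11 in L5-Htr2c, 0.40 ± 0.065 in L2/3-Rorb and 0.37 ± 0.059 in L6-Npy, and without the activity-high neurons the last was 0.0063. Per1 did reach a call in L5-Htr2c with no filter on low counts (-0.52) and without replicate 1 (-0.55), and in L2/3-Rorb without the activity-high neurons (0.51).

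**Figure D3:**
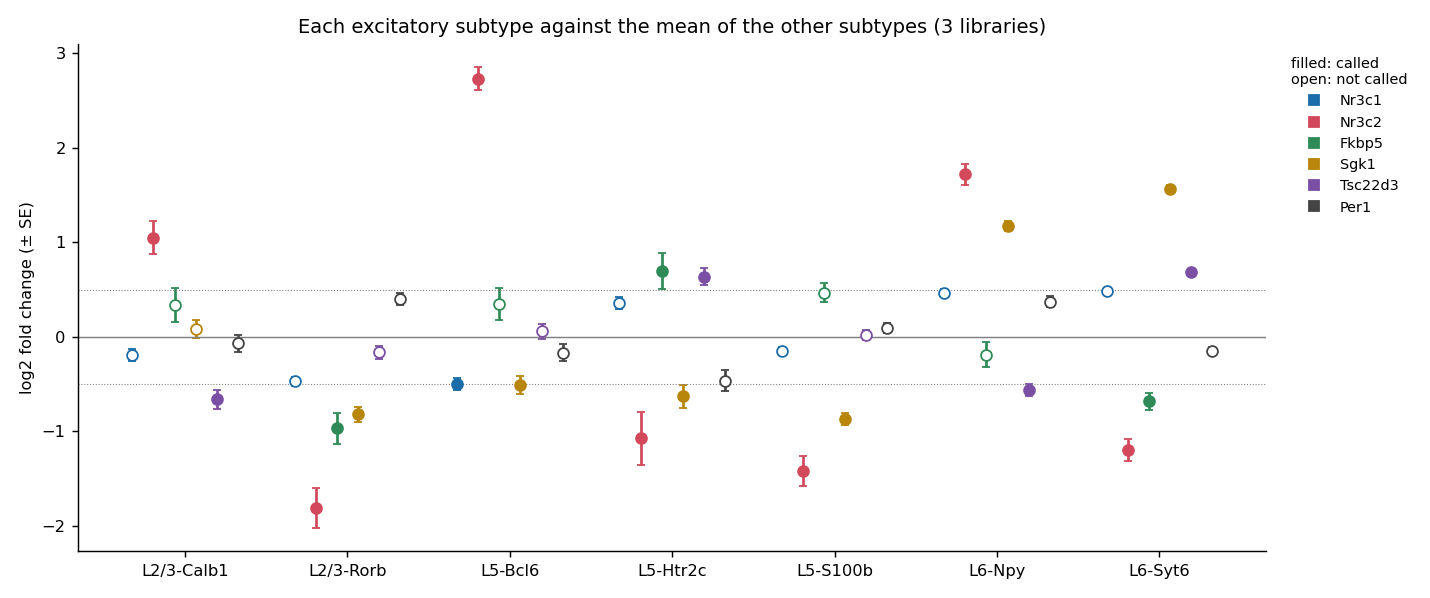
Log2 fold change (± SE) of the 6 tested genes in each excitatory subtype against the mean of the other 6, from 3 unsorted libraries, filled where called and with dotted lines at 0.5 and -0.5. Nr3c2 runs from -1.81 in L2/3-Rorb to 2.73 in L5-Bcl6, and Sgk1 is highest in the layer 6 subtypes.

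Projection labelling was examined inside 3 subtypes over all 4 libraries. Neurons with 5 or more UMIs of the viral feature (barcode-high) were compared with neurons that had none (barcode-zero), 1635 against 2327 in L6-Syt6, 535 against 232 in L6-Npy and 958 against 195 in L5-S100b. The matrices hold 1 viral feature where the methods describe 5 barcodes, and what this feature counts was not tested. Targets are therefore not told apart, and a barcode-zero neuron may be labelled but undetected. The part of background in the viral UMIs was not tested. In L6-Syt6, 1 of 6 tested members was called, higher, where 1.67% of all genes were called (0.806% higher, 0.867% lower). In L6-Npy, 2 of 6 were called, both higher, where 0.801% were (0.617% higher, 0.183% lower). In L5-S100b edgeR called 0 of 6, where 2.7% of all genes were called (1.1% higher, 1.6% lower), with an unadjusted p under 0.05 in 3 and 0 calls by DESeq2.

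Sgk1 in L6-Syt6 was 111.6, 125.6, 137.7 and 98.3 CPM in barcode-high neurons of unsorted replicates 1, 2 and 3 and the sorted library. In barcode-zero neurons of the same libraries it was 80.1, 80.8, 88.3 and 64.6 CPM. It was thus higher in 4 of 4 libraries, with a log2 fold change of 0.63 ± 0.050 (adjusted p = 0.000514). In L6-Npy it was 82.8, 102.9, 95.3 and 97.8 CPM against 73.0, 83.9, 61.6 and 49.3 CPM, also higher in 4 of 4 libraries, by 0.52 ± 0.10 (adjusted p = 0.00260). In L5-S100b it was 21.2, 25.0, 23.5 and 19.7 CPM against 25.5, 29.2, 34.8 and 12.5 CPM, lower in the unsorted and higher in the sorted library (-0.19 ± 0.17, adjusted p = 0.626). The difference between the L6-Syt6 and L5-S100b fold changes was itself tested and was 0.82 (adjusted p = 0.00953), whereas that between L5-S100b and L6-Npy was -0.71 (adjusted p = 0.136).

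Per1 in L6-Npy was 72.5, 73.3, 60.02 and 78.6 CPM in barcode-high neurons and 44.2, 52.1, 41.7 and 39.1 CPM in barcode-zero neurons. These ranges did not overlap, and the difference was 0.69 ± 0.11 (adjusted p = 0.000133). In L6-Syt6 it was higher in 4 of 4 libraries by 0.37 ± 0.062 (adjusted p = 0.0122), and in L5-S100b by 0.46 ± 0.14 (adjusted p = 0.0460), both short of the fold limit. Per1 in L5-S100b passed it without replicate 1 (0.65) or replicate 3 (0.55). No member interaction other than that of Sgk1 had an adjusted p under 0.05. Receptor transcripts showed no call, with Nr3c1 at 0.10 ± 0.047 in L6-Syt6, -0.07 ± 0.072 in L6-Npy and -0.09 ± 0.091 in L5-S100b. Nr3c2 was at 0.27 ± 0.18 in L6-Syt6, -0.13 ± 0.15 in L6-Npy and -0.80 ± 0.39 in L5-S100b (unadjusted p = 0.0493, adjusted p = 0.290). The last value was 0.12 without unsorted replicate 1.

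Barcode-high neurons were also deeper and richer in activity genes. Their median UMI count was 1.12 to 1.28 times that of barcode-zero neurons in L6-Syt6, 1.02 to 1.12 times in L6-Npy and 1.17 to 1.32 times in L5-S100b. Immediate early genes summed to 6543 ± 270 against 5063 ± 596 CPM in L6-Syt6 (SD, n = 4), 5661 ± 687 against 3897 ± 729 CPM in L6-Npy and 3560 ± 221 against 2874 ± 684 CPM in L5-S100b. Of 15 immediate early genes, 7 were called higher in L6-Syt6, 12 in L6-Npy and 4 in L5-S100b, where 0.806%, 0.617% and 1.1% of all genes were called higher. Among the other glucocorticoid targets, Arl4d (0.83 ± 0.065) and Dusp1 (0.69 ± 0.13) were called higher in L6-Syt6, and Arl4d (1.04 ± 0.16), Dusp1 (0.80 ± 0.10) and Cdkn1a (0.55 ± 0.12) in L6-Npy. The part of activity genes in the Sgk1 and Per1 results was not tested. At 10000 UMIs per neuron the calls of Sgk1 and Per1 in layer 6 held, while Sgk1 in L5-S100b turned to 0.21 (adjusted p = 0.837).

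The calls in layer 6 depended on the design. Without the library block the number of genes called was 75 in place of 218 in L6-Syt6, 56 in place of 310 in L5-S100b and 0 in place of 83 in L6-Npy (406 at an unadjusted p under 0.05, 11 by DESeq2), and Sgk1 had an adjusted p of 0.103 in L6-Syt6 and 0.959 in L6-Npy, where that of Per1 was 0.416. DESeq2 called Sgk1 in L6-Syt6 (0.64, adjusted p = 4.05e-12) but not Sgk1 (adjusted p = 0.266) or Per1 (adjusted p = 0.0683) in L6-Npy. Sgk1 in L6-Npy was also not called without replicate 3 (0.48) or the sorted library (0.37), and with a limit of 1 viral UMI Sgk1 was 0.44 in L6-Syt6 and 0.27 in L6-Npy and Per1 0.43 in L6-Npy, none of them called.

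**Figure D4:**
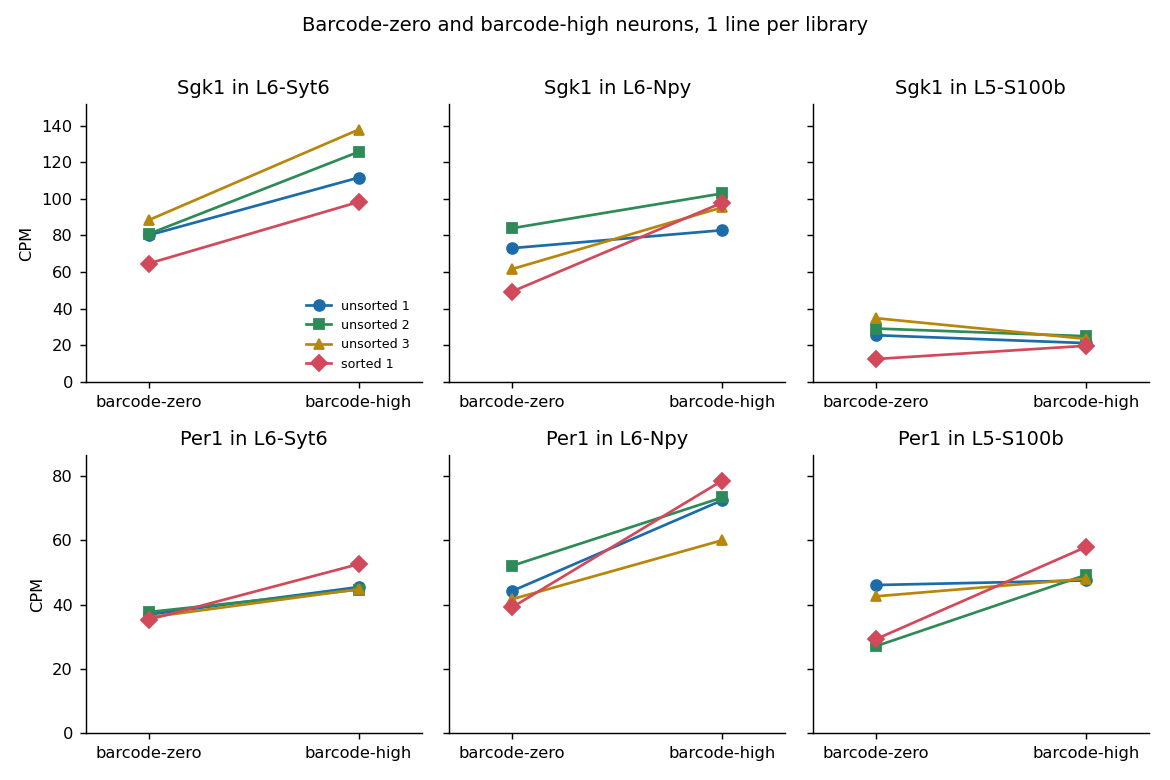
Sgk1 (top) and Per1 (bottom) in CPM, linear axes from 0, in barcode-zero and barcode-high neurons of 3 subtypes, 1 line per library. Both genes are higher in barcode-high neurons in 4 of 4 libraries in L6-Syt6 and L6-Npy, whereas the Sgk1 lines of L5-S100b run in both directions.

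The sorted library was set beside the unsorted ones in the 5 subtypes with at least 50 neurons in each library. It is a single library of pooled mice, sorted, run separately and read more deeply, so these factors cannot be told apart and no test was made. Nr3c1 was above the unsorted range in 5 of 5 subtypes, with 190.0 CPM in L6-Syt6 against 134.4 to 143.5 CPM and 210.2 CPM in L6-Npy against 140.6 to 145.7 CPM. Fkbp5 was above in 5 of 5, with 24.1 CPM in L5-Bcl6 against 9.36 to 14.7 CPM, and so was Per1. Nr3c2 was above in 4 of 5, with 60.9 CPM in L5-Bcl6 against 43.7 to 50.4 CPM. Sgk1 and Tsc22d3 were below in 5 of 5, with 87.6 CPM against 91.6 to 104.4 CPM for Sgk1 and 57.5 CPM against 68.1 to 72.0 CPM for Tsc22d3 in L6-Syt6. Such departures were common, since 44.3% to 53.3% of genes with a mean of at least 5 CPM were above and 29.7% to 32.5% below the unsorted range. Among these 5 subtypes the leading pair had the same order as in the unsorted means, L5-Bcl6 before L6-Npy (36.5 CPM) for Nr3c2 and L6-Syt6 before L6-Npy (72.8 CPM) for Sgk1. The lower places changed. Nr3c2 in the sorted library was 6.54 CPM in L2/3-Rorb, 4.88 CPM in L6-Syt6 and 4.03 CPM in L5-S100b, and Sgk1 was 22.1 CPM in L5-Bcl6, 20.3 CPM in L5-S100b and 17.2 CPM in L2/3-Rorb. Hsd11b1 had 3 UMIs in L6-Npy (0.415 CPM), 2 in L2/3-Rorb (0.545 CPM, below the unsorted range), 1 in L6-Syt6, 0 in L5-Bcl6 and 5 in L5-S100b.

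**Figure D5:**
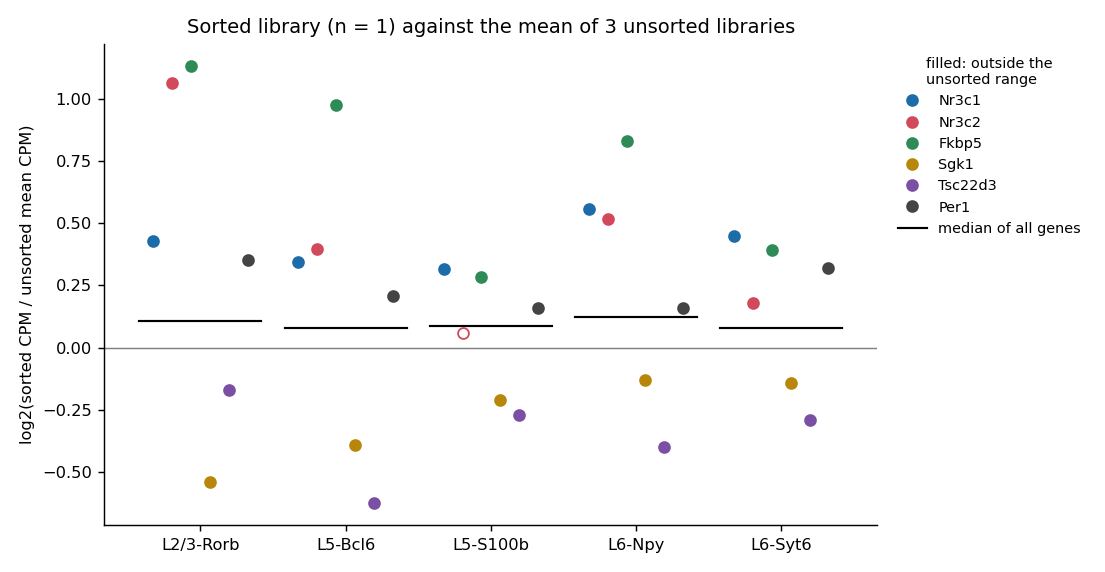
Log2 ratio of the sorted library (n = 1) to the mean of 3 unsorted libraries for 6 genes in 5 subtypes, filled where the sorted value lies outside the unsorted range, with a black line at the median of all genes in that subtype. Nr3c1, Fkbp5 and Per1 lie above 0 and Sgk1 and Tsc22d3 below 0 in 5 of 5 subtypes.

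The genes most like each member were searched by Pearson's r of log2(CPM + 1) over the 10 group means, among 11531 genes with a mean of at least 5 CPM. Points share libraries and the 3 classes set much of each r. Tsc22d3 was most like Ppard (r = 0.99), Pdcl3 (0.98) and Laptm4a (0.98), and the genes near Sgk1 included Alg5 (0.98) and Ddost (0.96). Per1 was nearest to Calhm2 (0.94), Dusp6 (0.93) and Glb1 (0.93), Fkbp5 to Gnpda1 (0.94), Tmem135 (0.93) and Rpl3 (0.91), and Nr3c1 to Smc1a (0.94), Btd (0.93) and Hspa1a (0.92). Nr3c2 had weaker neighbours, Pygb (0.86), Slc44a5 (0.84) and Apaf1 (0.81), as did Hsd11b1 at its low counts, with Arvcf (0.84), Cdkn1c (0.84) and Scn7a (0.83). Between members, Nr3c1 had r = 0.81 with Tsc22d3, 0.77 with Sgk1, 0.04 with Per1 and -0.42 with Fkbp5 over the 10 groups. Over the 7 subtypes these values were 0.32, 0.67, -0.27 and 0.04. Nr3c2 had r = -0.11 with Tsc22d3, -0.06 with Sgk1, 0.04 with Per1 and -0.04 with Fkbp5 over the 10 groups.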

How the data were processed

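Libraries were 10x Chromium 3' v3 single-cell RNA-seq. The deposited matrices hold raw UMI counts per gene and cell, which the authors made with Cell Ranger (3.0.2 in the file headers) on an mm10 reference with viral barcodes added. The deposited annotation lists 9368 excitatory neurons and their subtype. Members and gene lists were chosen with earlier results of these data known.

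Cells outside the annotation had to pass the study's limits on genes (500 to 8000), UMIs (1000 to 60000) and mitochondrial share (below 20%), and were gated at 4 or more UMIs of the 2 genes of a class. The 47, 47 and 56 endothelial, oligodendrocyte and microglial cells that also passed another gate were left out, and no doublet caller was run. The viral feature, 0.0319% to 0.0384% of UMIs, was left out of sums and library sizes. Sums of counts per library and group were tested in edgeR 4.0.16 (R 4.3.3), with TMM factors, filterByExpr and the library as a block, because both sides of a comparison came from the same mice. Deviations of groups from the same library correlated at -0.057 to 0.12 (median 0.020, 135 pairs). The call rule is given with the first comparison. Subtype tests used the unsorted libraries, and barcode tests all 4. The spread behind p-values is that between mice for unsorted libraries and includes a pool of mice for the sorted one. DESeq2 1.42.0, other scaling, filters, gates, thinning and left-out libraries were alternatives, and leaving out cells with UMIs of a neighbouring type was chosen after seeing the data. On simulated counts for the L5-Bcl6 comparison (12850 genes), 80% of 2-fold and 98% of 4-fold changes were recovered. Named genes were the 7 members, at most 3 called genes with the largest fold change per pathway list and comparison, and the 3 genes most like each member, of which 1 is not reported here. Analyses of single projection targets were not made here.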

Additional observations from a re-analysis of the deposited data

Results flagged for a closer look

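The difference in Sgk1 between barcode-high and barcode-zero neurons was not the same in L6-Syt6 and L5-S100b. Barcode-high minus barcode-zero was 0.63 in L6-Syt6 and -0.19 in L5-S100b, and the interaction was 0.82 on the log2 scale (edgeR, adjusted p = 0.00953 over 11968 genes, of which 754 had an adjusted p under 0.05). Sgk1 was higher in barcode-high neurons in 4 of 4 libraries of L6-Syt6 and lower in 3 of 4 libraries of L5-S100b. Sgk1 had 103 UMIs in all barcode-zero L5-S100b neurons together, and the immediate early gene sum was higher in barcode-high neurons in 4 of 4 libraries of L6-Syt6 and 3 of 4 of L5-S100b. Their part in this result was not tested. On cells thinned to equal depth the values were 0.65 in L6-Syt6 and 0.21 in L5-S100b (adjusted p = 0.837 for the latter), which have the same sign, and the interaction itself was not run on thinned cells or under any other alternative.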

How the results depend on the processing

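Counts of genes called in the class and subtype comparisons stayed within 1.5 times the main count under all 102 alternative values. Of 30 alternative counts in the barcode comparisons, 15 did not. With DESeq2 the count was 142 in L5-S100b and 11 in L6-Npy. With no replicate block it was 75 in L6-Syt6, 56 in L5-S100b and 0 in L6-Npy, and the pairing of groups by library changed no other count by over 1.5 times and no member call outside the barcode comparisons. Leaving out each library in turn gave 28 to 309 in L6-Syt6, 178 to 289 in L5-S100b and 45 to 75 in L6-Npy, and counts moved by over 1.5 times in L6-Syt6 without unsorted replicate 1 (78), 2 (28) and 3 (77), in L5-S100b without replicate 2 and in L6-Npy without replicate 3. Thinning gave 191 in L5-S100b and 51 in L6-Npy, and a limit of 1 viral UMI gave 27, 202 and 31 in L6-Syt6, L5-S100b and L6-Npy. The cause was not tested. Of 789 alternative fold changes of members, 747 kept direction and side of the limits, 18 lost and 15 gained a call, and 9 reversed, none of them called. The reversed values were Tsc22d3 in L5-S100b with total counts (-0.0093), on leaving out a library in turn (-0.0091 to 0.046, negative without unsorted replicate 2) and without activity-high neurons (-0.00036), Tsc22d3 in L5-Bcl6 on leaving out a library (-0.040 to 0.13, negative without unsorted replicate 2) and with the sorted library added (-0.0022), Per1 in L2/3-Calb1 without activity-high neurons (0.0049), Nr3c2 in thinned oligodendrocytes (0.20), and in barcode-high L5-S100b neurons Nr3c2 on leaving out a library (-1.05 to 0.12, positive without unsorted replicate 1) and Sgk1 after thinning (0.21). Depth limits Hsd11b1 everywhere, Fkbp5 in endothelial cells and oligodendrocytes, and Nr3c2 in L5-Htr2c and L2/3-Rorb.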

Other observations

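The receptor for corticotropin-releasing hormone, Crhr1, which acts upstream of corticosterone release and is also used within the cortex, also differed between subtypes. It was 51.9 ± 4.22 CPM in L2/3-Rorb (SD, n = 3), 25.6 ± 1.35 CPM in L5-S100b, 16.9 ± 1.99 CPM in L5-Bcl6, 1.73 ± 0.14 CPM in L6-Syt6 and 0.84 ± 0.28 CPM in L5-Htr2c. It was called higher in L2/3-Rorb (2.93 ± 0.097), L5-S100b (1.78 ± 0.098), L5-Bcl6 (1.10 ± 0.17) and L2/3-Calb1 (0.59 ± 0.20), and lower in L5-Htr2c (-4.01 ± 0.40) and L6-Syt6 (-2.68 ± 0.29). Nr3c2 was called in the same direction in L5-Bcl6, L2/3-Calb1, L5-Htr2c and L6-Syt6. In L2/3-Rorb and L5-S100b, where Crhr1 was higher, Nr3c2 was lower. The likeness of the patterns was not tested. Nrip1, a corepressor of nuclear receptors, was 173 ± 5.34 CPM in L5-Bcl6, the subtype with the most Nr3c2, against 52.1 to 82.4 CPM as the means of the other subtypes (1.45 ± 0.051).

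In L6-Syt6 neurons, where 14.6% of all genes were called higher, 4 of 8 chaperones of the receptor complex were called higher, among them Hsp90ab1 (1.18 ± 0.017), Hspa8 (0.94 ± 0.019) and Hsp90aa1 (0.77 ± 0.016). These are also heat shock genes, and 10 of 15 immediate early genes were called higher in the same subtype. Their part in the chaperone values was not tested. Of the other glucocorticoid targets, Cebpd (3.11 ± 0.27), Arl4d (2.00 ± 0.044) and Dusp1 (1.38 ± 0.037) were higher in L6-Syt6. In L6-Npy, Nedd9 (1.69 ± 0.14) and Cdkn1a (1.26 ± 0.075) were higher and Hif3a was lower (-1.90 ± 0.62). There 10.3% of all genes were called higher and 7.53% lower. Such changes were not confined to layer 6. Cdkn1a and Map3k6 were also higher in L2/3-Rorb (1.59 and 1.37) and L5-S100b (0.98 and 1.53), where Ddit4 was lower (-1.05 and -0.79). Cdkn1a and Map3k6 were lower in L5-Bcl6 (-2.70 and -2.90). Crh itself was higher in oligodendrocytes (6.92 ± 5.25 CPM) and microglia (6.76 ± 5.03 CPM) than in excitatory neurons (0.35 ± 0.081 CPM). Markers of inhibitory neurons, cells known to make Crh, were at 33.2 to 77.9 and 33.4 to 82.4 CPM in those classes against 5.46 to 6.88 CPM in excitatory neurons, and their part was not tested.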
